A study of Mus musculus with 2 samples.

Results

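The 10 genes described here encode the early G1 machinery of the cell cycle: the D cyclins Ccnd1, Ccnd2 and Ccnd3, their kinases Cdk4 and Cdk6, the Cip/Kip inhibitors Cdkn1a, Cdkn1b and Cdkn1c, and the INK4 inhibitors Cdkn2a and Cdkn2b. They were taken by symbol from 55363 genes measured by RNA sequencing of whole mouse uterus, and each symbol stood on a single deposited row. The libraries came from pregnant females of 6 to 8 weeks, mated with fertile males and killed on gestational day 4, the plug day being the first. One group has the Mettl14 genotype f/f and serves as the control, the other the genotype d/d, in usual notation floxed and deleted alleles. The sources used here do not give the Cre driver, the strain or the number of animals behind a library. There was 1 library per genotype, so no difference below has a replicate error or a test, and "higher" and "lower" compare these libraries only. In bulk tissue, fewer cells of a type and less RNA per cell cannot be told apart.

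D cyclins bind and switch on Cdk4 and Cdk6, which phosphorylate the retinoblastoma protein and so release E2F transcription factors for entry into S phase. INK4 proteins bind Cdk4 and Cdk6 and block the pairing with a D cyclin, whereas Cip/Kip proteins bind whole cyclin-kinase complexes and chiefly inhibit Cdk2. In the mouse uterus, estrogen drives division of the epithelium early in pregnancy, and by day 4 progesterone has shifted division to the stroma. Later, Ccnd3 with Cdk6 and Cdkn1a marks the decidual cells that become polyploid.

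Mettl14, which encodes the partner of Mettl3 in the enzyme that deposits N6-methyladenosine (m6A) on transcripts, checks the labels. It measured 13.6 FPKM (fragments scaled to gene length and to library size) in f/f and 3.21 FPKM in d/d, 4.25-fold lower. Depth, estimated from the steps of low values, was near 17800000 fragments for the f/f library, against 20900000 for d/d. Over the 16263 genes that reached 1 FPKM in either library, the median log2 ratio of (FPKM + 1), d/d over f/f, was -0.01. Of these genes 18.4% passed 2-fold on that scale, 10.2% of them all as higher and 8.28% as lower. All 10 genes are counted, but Cdkn2a reached 1 FPKM in d/d alone.

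Promoter windows show what lies upstream of the members furthest from a ratio of 0 and of the most abundant one. RefSeq windows on GRCm38.p6, from 250 bases before a start to 50 after it, matched 7 of the 10 genes; Ccnd1, Ccnd2 and Cdkn1c were not matched. The 150 bases nearest the start that no annotated exon of that strand covers are printed 5′ to 3′, with motif matches on either strand in capitals. The motifs searched were the GC box GGGCGG, the E-box CACGTG, the TATA box TATAAA, the E2F spellings TTTCCCGC, TTTCGCGC, TTTGCCGC and TTTGGCGC, the palindromic estrogen response element GGTCANNNTGACC, and the p53 decamer.
Cdkn1a, upstream start, chr17:29090826-29090975, plus strand: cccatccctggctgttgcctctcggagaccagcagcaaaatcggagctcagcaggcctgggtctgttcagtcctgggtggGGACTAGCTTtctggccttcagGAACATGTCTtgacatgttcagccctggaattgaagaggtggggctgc
Cdkn1a, downstream start, chr17:29093619-29093768, plus strand: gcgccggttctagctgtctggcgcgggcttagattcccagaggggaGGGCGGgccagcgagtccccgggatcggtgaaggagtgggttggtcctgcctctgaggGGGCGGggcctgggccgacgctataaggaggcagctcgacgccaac
Cdkn2a, upstream start, chr4:89294654-89294803, minus strand: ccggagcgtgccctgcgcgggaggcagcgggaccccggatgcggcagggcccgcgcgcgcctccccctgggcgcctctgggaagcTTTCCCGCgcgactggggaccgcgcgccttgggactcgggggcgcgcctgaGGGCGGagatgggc
Cdkn2a, downstream start, chr4:89282193-89282342, minus strand: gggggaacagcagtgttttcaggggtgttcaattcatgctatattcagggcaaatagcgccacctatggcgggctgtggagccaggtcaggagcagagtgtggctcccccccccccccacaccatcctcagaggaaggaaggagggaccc
Cdkn2b, single start, chr4:89311040-89311189, minus strand: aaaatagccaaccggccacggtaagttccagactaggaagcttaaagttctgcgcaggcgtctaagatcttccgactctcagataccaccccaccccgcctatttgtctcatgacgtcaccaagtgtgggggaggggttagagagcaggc
Cdk4, single start, chr10:127063384-127063533, plus strand: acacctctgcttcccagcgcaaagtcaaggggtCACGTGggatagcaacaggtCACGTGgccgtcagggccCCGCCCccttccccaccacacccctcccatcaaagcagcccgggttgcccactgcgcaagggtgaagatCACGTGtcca

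In the Cdkn1a window at the upstream start the capitals are 2 matches to the p53 decamer, beginning at -73 and -51 from that start. A p53 decamer occurs in 8.36% of all 32851 windows of this length. That start lies 2790 bases upstream of the other, whose window has 2 GC boxes and no decamer. p53 is known to act on Cdkn1a through elements a few kilobases upstream of the main start.

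The upstream start of Cdkn2a, which gives the Arf transcript, has an E2F match TTTCCCGC at -99 and GC boxes at -48, -14 and 32, of which the printed stretch holds 1. E2F spellings occur in 2.26% of all windows and a GC box in 35.7%. The start 12427 bases downstream, which gives the INK4a transcript, has a single GC box at 24, as Cdkn2b has at 5, both beyond the printed bases. The Cdk4 window has 3 GC boxes, 1 of them printed, and 4 matches to CACGTG, the E-box bound by Myc, at -172, -118, -98 and -11, where 7.15% of windows hold any; the printed bases hold 3 of them. None of the windows of the 7 genes holds the estrogen response element, found in 0.07% of all windows, and the TATA box, in 13.6% of windows, was matched in Cdk6 alone. A match is a description of letters, not a bound site.

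D cyclin levels differed little between the libraries. Ccnd3 (ENSMUSG00000034165, chromosome 17 from 47505051 to 47599691, plus strand) was the most abundant, at 126 FPKM in f/f and 94.6 FPKM in d/d, a log2 ratio of -0.41. Ccnd1 (ENSMUSG00000070348, chromosome 7 from 144929931 to 144939925, minus strand), the D cyclin through which growth factors and estrogen act on the epithelium of the uterus, stood at 56.2 FPKM in f/f and 60.9 FPKM in d/d, a log2 ratio of 0.11. Ccnd2 (ENSMUSG00000000184, chromosome 6 from 127125162 to 127152193, minus strand) was 15.4 FPKM in f/f and 14.8 FPKM in d/d, a log2 ratio of -0.05. None of the 3 passed 2-fold. Each overlaps genes on the other strand, Ccnd1 with LTO1 over 1771 bases, Ccnd2 with the antisense RNAs 9330179D12Rik over 2805 and Gm43126 over 994, and Ccnd3 with Bysl over 361, and fragments there could be assigned to either.

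The sum of the D cyclins was 198 FPKM in f/f and 170 FPKM in d/d. FPKM is per length, so members can be set side by side within a library. Ccnd3 made up 63.8% of that sum in f/f against 55.6% in d/d, and Ccnd1 28.4% and 35.8%. The order Ccnd3, Ccnd1, Ccnd2 held in both libraries, with no replicate spread to set against the gaps.

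**Figure D1:**
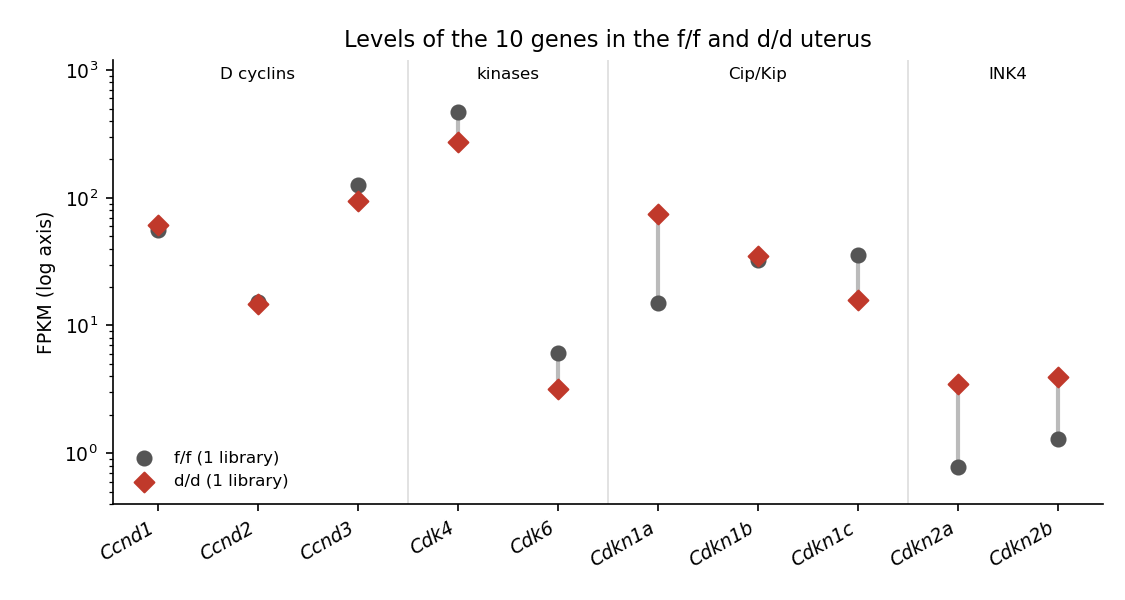
Level of each gene in FPKM on a log axis, with a circle for the f/f library and a diamond for the d/d library. The symbols overlap for Ccnd1, Ccnd2 and Cdkn1b, while Cdkn1a lies at 14.9 FPKM in f/f and 74.7 FPKM in d/d.

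Both kinases were lower in d/d, though short of 2-fold on the scale used. Cdk4 (ENSMUSG00000006728, chromosome 10 from 127063534 to 127067920, plus strand) was the highest of the 10 genes in both libraries, at 473 FPKM in f/f and 272 FPKM in d/d, a log2 ratio of -0.80. At or below that ratio lay 1939 of the 16263 genes. Cdk6 (ENSMUSG00000040274, chromosome 5 from 3341485 to 3531008, plus strand) was 6.11 FPKM in f/f and 3.17 FPKM in d/d, a log2 ratio of -0.77. Without the added 1 FPKM, Cdk4 was 1.74-fold and Cdk6 1.93-fold lower in d/d.

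Cdk4 was 98.7% of the Cdk4 and Cdk6 sum in f/f against 98.8% in d/d. Cdk4 shares 641 bases at its end with Tspan31 on the other strand, which was 70.6 FPKM in f/f and 78.5 FPKM in d/d; strand use in the authors' estimate is not stated. The ratio of summed D cyclins to summed kinases was 0.413 in f/f against 0.619 in d/d, a ratio within each library that does not depend on its scaling.

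The Cip/Kip family held the member highest in d/d relative to f/f and the one lowest. Cdkn1a (ENSMUSG00000023067, chromosome 17 from 29090976 to 29100727, plus strand) encodes p21, the inhibitor induced by p53 and by many other stimuli. It was 14.9 FPKM in f/f and 74.7 FPKM in d/d, 5.01-fold higher, with a log2 ratio of 2.25 that 378 of the 16263 genes reached or exceeded. Cdkn1c (ENSMUSG00000037664, chromosome 7 from 143458339 to 143461050, minus strand) encodes p57, an imprinted inhibitor expressed from the maternal allele. It was 35.9 FPKM in f/f and 15.7 FPKM in d/d, 2.29-fold lower, with a log2 ratio of -1.14. Cdkn1b (ENSMUSG00000003031, chromosome 6 from 134920401 to 134925513, plus strand) encodes p27, whose protein level is set largely by degradation. It was 32.7 FPKM in f/f and 34.9 FPKM in d/d, a log2 ratio of 0.09.

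The makeup of the family differed more than its sum. Summed Cip/Kip signal was 83.6 FPKM in f/f and 125 FPKM in d/d. Cdkn1a was 17.8% of it in f/f against 59.6% in d/d, while Cdkn1c was 43.0% and 12.5%. Cdkn1b was 39.2% in f/f and 27.8% of the larger sum in d/d, at a nearly equal level. Among the 10 genes Cdkn1a held place 7 by level in f/f and place 3 in d/d, and Cdkn1c place 4 and place 6.

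**Figure D2:**
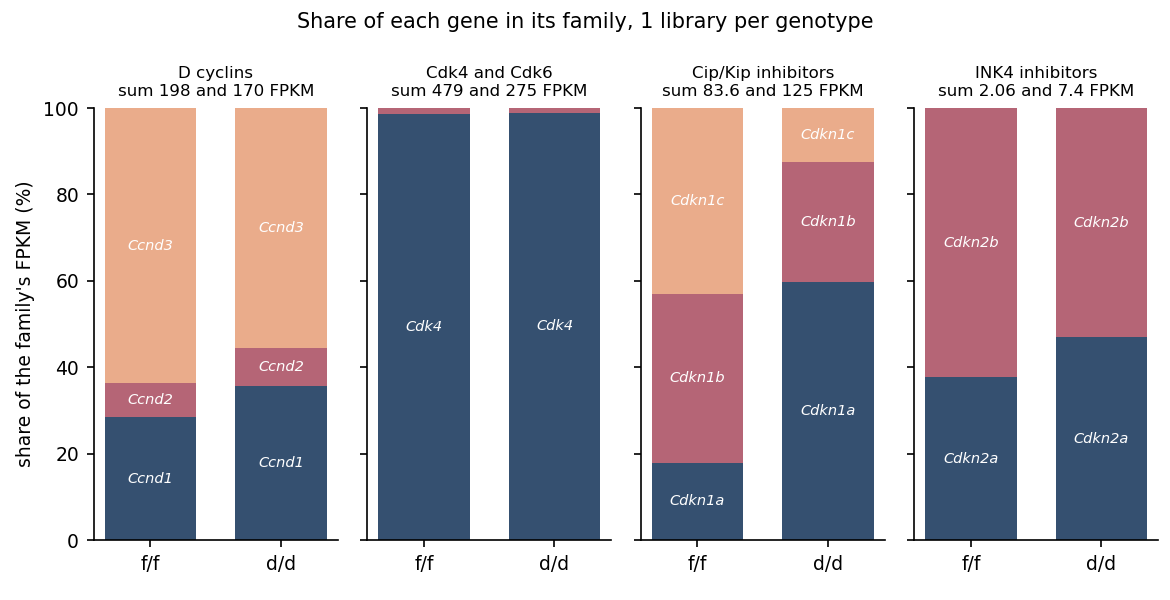
Stacked bars give the share of each gene in the summed FPKM of its family, in percent, for the f/f and d/d library. The INK4 bars hold Cdkn2a and Cdkn2b only. The Cip/Kip bars differ most, with Cdkn1a at 17.8% in f/f against 59.6% in d/d.

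The INK4 genes among the 10, Cdkn2a and Cdkn2b, were the lowest of the set in f/f and higher in d/d. The INK4 genes outside the 10 were not higher in d/d. Cdkn2c was 47.7 FPKM in f/f and 26.7 FPKM in d/d, and Cdkn2d 20.1 and 19.9 FPKM. Cdkn2a (ENSMUSG00000044303, chromosome 4 from 89274471 to 89294653, minus strand) was 0.776 FPKM in f/f and 3.47 FPKM in d/d, a log2 ratio of 1.33. It encodes the INK4a protein from one start and Arf, which shields p53 from Mdm2, from the other, and the gene-level value does not separate them. Cdkn2b (ENSMUSG00000073802, chromosome 4 from 89306299 to 89311039, minus strand), an inhibitor induced by TGF-beta, was 1.28 FPKM in f/f and 3.93 FPKM in d/d, a log2 ratio of 1.11. Cdkn2a and Cdkn2b lie next to each other with 11645 bases between them. On the estimated depth and the longest coding transcript, Cdkn2a rests on about 12.4 fragments for f/f against 65.0 for d/d, and Cdkn2b on about 31.7 and 114. These are rough values from an estimated depth, and the added 1 FPKM weighs heavily at such levels: with 5 added instead, the log2 ratios were 0.55 and 0.51, short of 2-fold. In d/d both stood above Cdk6, at places 9 and 8 with Cdk6 at place 10, where in f/f Cdk6 held place 8.

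In all, 3 of the 10 genes were at least 2-fold higher, against 10.2% of all genes counted, and 1 was at least 2-fold lower, against 8.28%. The 3 were Cdkn1a, Cdkn2a and Cdkn2b, and the 1 was Cdkn1c, so all 4 are inhibitors. Cdkn2a passed the filter through d/d alone, and with 5 FPKM added in place of 1 Cdkn1c stood at -0.98, so that Cdkn1a alone was past 2-fold. The other 6 genes had log2 ratios between -0.80 and 0.11. The median over the 10 was 0.02, near that of all genes.

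The summed inhibitors were higher in d/d relative to the kinases, with Cdkn1a higher and the kinases lower. The 5 inhibitors summed to 85.6 FPKM in f/f and 133 FPKM in d/d, 1.55-fold higher. Cdk4 and Cdk6 summed to 479 FPKM in f/f and 275 FPKM in d/d, 1.74-fold lower. The ratio of the 5 inhibitors to Cdk4 and Cdk6 was 0.179 in f/f against 0.483 in d/d, 2.70-fold higher. Without Cdkn1a the other 4 summed to 70.7 FPKM in f/f and 58.0 FPKM in d/d, and their ratio to the kinases was 0.148 and 0.211, 1.43-fold higher. With Cdkn2c and Cdkn2d added to the 5, the ratio to the kinases was 0.321 in f/f against 0.652 in d/d, 2.03-fold higher. These alternatives were chosen after seeing the data. Of the 5, Cdkn1c alone was lower relative to the kinases, with a ratio of 0.0751 in f/f against 0.0571 in d/d. The ratio of Cip/Kip genes to D cyclins was 0.423 and 0.736, and without Cdkn1a it ran the other way, at 0.348 and 0.297. These ratios describe transcripts and not protein complexes.

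**Figure D3:**
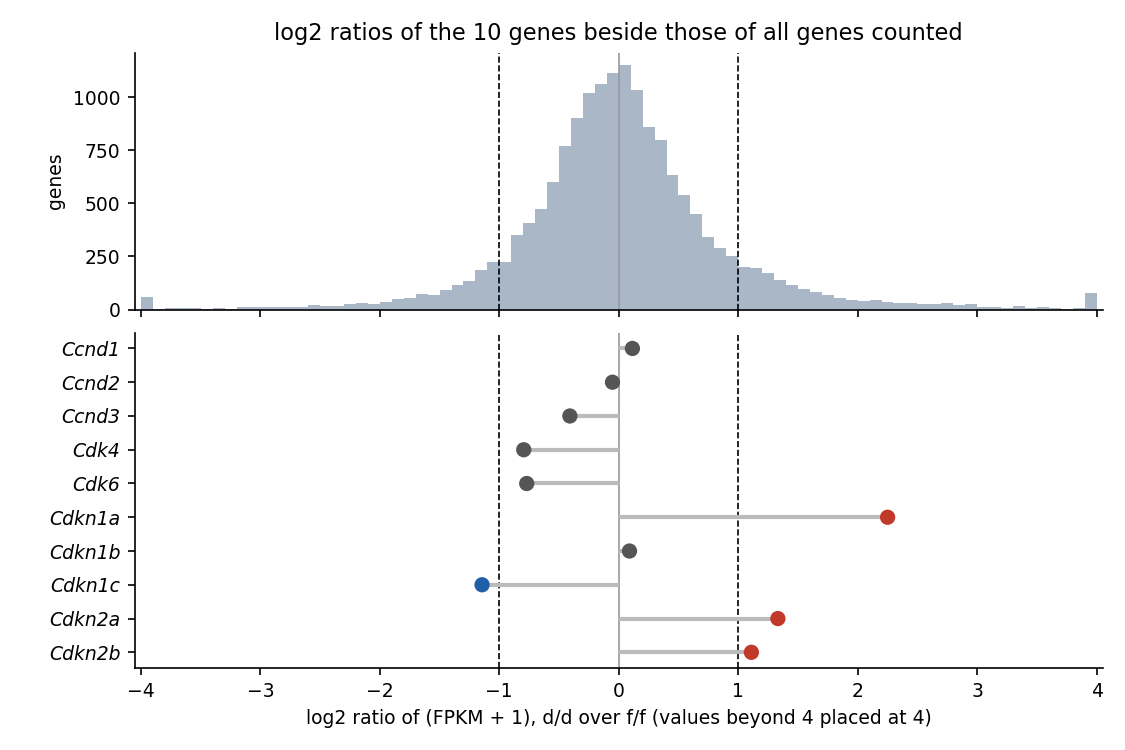
Upper panel, number of genes by log2 ratio of (FPKM + 1), d/d over f/f, for the 16263 genes counted; lower panel, the ratio of each of the 10 genes, with dashed lines at 2-fold. Cdkn1a at 2.25, Cdkn2a at 1.33 and Cdkn2b at 1.11 lie right of the upper line, and Cdkn1c at -1.14 left of the lower line.

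Genes around the 10 in the same pathway more often had a ratio below 0 than above. Of 82 counted genes in 8 lists, 59 had a ratio below 0, or 72.0% against 50.8% of all genes counted. The share at least 2-fold lower was 6.10% (5 genes), against 8.28% of all genes. The share at least 2-fold higher was 1.22% (1 gene), against 10.2% of all genes. Their median log2 ratio was -0.29. These lists were drawn up with earlier results of these data known.

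All 20 S phase genes of the E2F list had ratios below 0, with a median of -0.63 and 3 past 2-fold. Among them were Rrm2, a subunit of ribonucleotide reductase, at a log2 ratio of -1.98, and Cdc45, part of the replicative helicase, at -1.15. In the list of E and A cyclins with their kinases, 6 of 6 counted genes were below 0, with Ccne2 at -1.51 and Ccna2 at -1.02 past 2-fold. Ccna1 stayed under 1 FPKM in both libraries and was not counted.

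The Rb and E2F list, part of which acts directly downstream of Cdk4 and Cdk6, had 9 of 13 genes below 0 (median -0.30) and none past 2-fold. Its most abundant genes were Tfdp1, the E2F dimer partner, at 48.9 FPKM in f/f and 37.6 FPKM in d/d, and E2f4, at 39.8 and 31.1 FPKM. All 3 genes in the list of other INK4 and CDK inhibitor genes were below 0. Cdkn3, not an INK4 gene, had a log2 ratio of -0.85 (named after its value was seen). Cdkn2c, an INK4 gene, was 47.7 FPKM in f/f and 26.7 FPKM in d/d. Cdkn2d, also INK4, was 20.1 and 19.9 FPKM, a log2 ratio of -0.02, near the median of all genes. The INK4 genes therefore did not share a direction, and Cdkn2c was far above Cdkn2a and Cdkn2b in both libraries. In the Cdk-activating kinase and folding list, 4 of 4 were below 0 and none passed 2-fold. The kinase chaperone Cdc37 was 209 FPKM in f/f and 178 FPKM in d/d, and Ccnh was 43.4 and 37.1 FPKM.

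Genes that degrade D cyclins and Cip/Kip proteins had 7 of 13 ratios below 0, or 10 of 13 after scaling both libraries by their upper quartile, with a median of -0.02 and none past 2-fold. The ubiquitin ligase subunits Skp1a and Ddb1 were 232 FPKM and 181 FPKM in f/f, and 239 FPKM and 135 FPKM in d/d. Among p53 and its targets other than Cdkn1a, 7 of 15 were below 0, the median was 0.07 (-0.02 after upper quartile scaling) and none passed 2-fold. Bax, a promoter of apoptosis, was 125 FPKM in f/f and 177 FPKM in d/d, and Gadd45a was 103 and 88.8 FPKM. The p53 gene Trp53 had a log2 ratio of -0.70 and its target Mdm2 one of 0.82 (both named after their values were seen). Cdkn1a, at 2.25, lay above each of the 15 in this list. The part of p53 in the value of Cdkn1a was not tested.

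Polycomb proteins repress Cdkn2a in many cells. Of 8 such genes 3 were below 0, with a median of 0.02 (6 of 8 and -0.08 after upper quartile scaling), and 1 passed 2-fold, Cbx8, at 4.20 FPKM in f/f and 14.8 FPKM in d/d. Ezh2, a Polycomb methyltransferase, had a log2 ratio of -0.45 and Bmi1 one of 0.14 (both named after their values were seen).

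Cell type markers differed between the libraries too, beside the inhibitors. General epithelial markers were at least 2-fold higher in 8 of 9 cases, and summed to 396 FPKM in f/f and 2335 FPKM in d/d. Stromal markers were at least 2-fold lower in 5 of 9 cases and below 0 in all 9, with sums of 4677 FPKM and 2963 FPKM. Gland markers were below 0 in all 6 cases and at least 2-fold lower in 5. They summed to 2275 FPKM and 14.7 FPKM, with Prss28 and Spink1 listed at 0 in d/d. The remaining gland marker, Foxa2, was 5.11 FPKM in f/f and 3.56 FPKM in d/d, a log2 ratio of -0.42. Smooth muscle sums were 4820 FPKM and 3155 FPKM, and endothelial sums 320 FPKM and 146 FPKM. In each of these lists all 6 genes were below 0, and 2 of the muscle and 4 of the endothelial genes were at least 2-fold lower. Of 6 leukocyte markers 4 were at least 2-fold higher and 1 at least 2-fold lower. The remaining marker, Ptprc, was 29.1 FPKM in f/f and 22.7 FPKM in d/d, a log2 ratio of -0.35. Leukocyte sums were 64.8 FPKM and 97.6 FPKM, with Ly6g listed at 0 in f/f. Fat cell markers were at least 2-fold higher in 3 of 3 counted, with sums of 2.96 FPKM and 102 FPKM and Plin1 listed at 0 in f/f. The part of cell makeup in the values of Cdkn1a, Cdkn1c, Cdkn2a, Cdkn2b and the kinases was not tested.

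**Figure D4:**
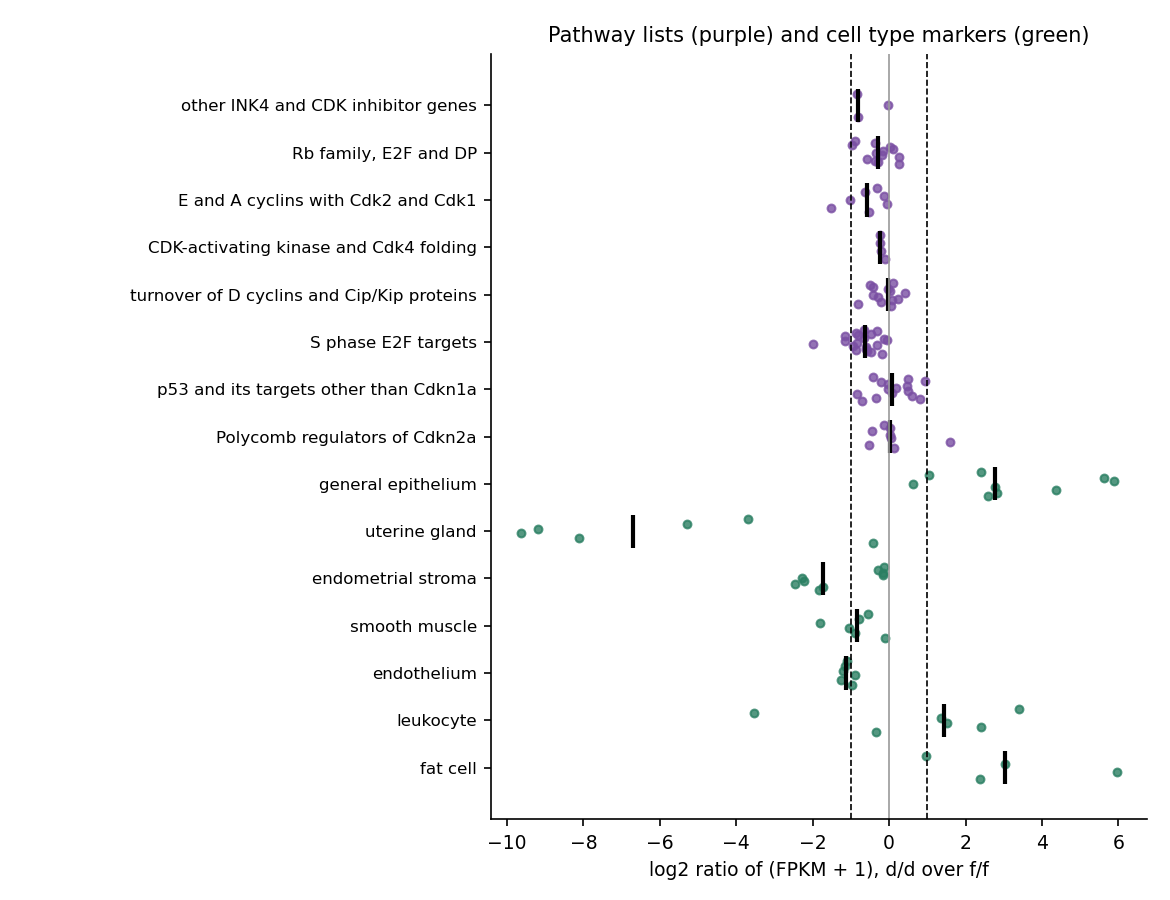
log2 ratio of (FPKM + 1), d/d over f/f, for each gene of the pathway lists (purple) and cell type markers (green), with a black bar at the median of the counted genes and dashed lines at 2-fold; Ccna1 and Plin1, under 1 FPKM in both libraries, are drawn but not counted. All S phase genes lie below 0 and all general epithelial markers above.

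The m6A consensus was looked for only in its spelling GGACT, since Mettl14 belongs to the writer of this mark. The coding transcript with the longest reading frame of each gene was searched (GENCODE M21, given strand only). Other spellings of the consensus were not searched. Of 13774 protein-coding genes counted, 91.0% held at least 1 GGACT, with a median of 1.06 per kilobase. Cdkn1a had 4 in 2080 bases, all in its 3′ UTR, or 1.92 per kilobase, more than 85.7% of these genes. Cdkn1c had 2, both coding, and Cdkn2b had 1. Cdk4 and Cdkn2a had none in the 2053 and 895 bases searched. Cdkn2a has 2 annotated transcripts, and the other was not searched. The D cyclins had 3 in Ccnd1, 6 in Ccnd2 and 3 in Ccnd3, Cdk6 had 9 and Cdkn1b 3. Among the 4 genes past 2-fold the count thus ran from 0 to 4, and no methylation was measured in these libraries.

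The match nearest the stop codon is shown for the genes past 2-fold that have one, and for Ccnd1 and Ccnd3, whose sites lie at nearly the same distance upstream of the stop codon (161 and 164 bases). Each site is 25 bases of the transcript on GRCm38 with the motif in capitals, and the sites of Ccnd1 and Ccnd3 span an intron, so their coordinates cover it.
Cdkn1a, chr17:29099839-29099863, plus strand: aaaatgagtaGGACTttggggtctc
Cdkn1c, chr7:143459804-143459828, minus strand: cctgcacccgGGACTgctgcggcca
Cdkn2b, chr4:89307013-89307037, minus strand: ccttccgcaaGGACTtctttctccc
Ccnd1, chr7:144932758-144934026, minus strand: agtgtgacccGGACTgcctccgtgc
Ccnd3, chr17:47598129-47598622, plus strand: gcactgaagtGGACTgcctgcgagc

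In Cdkn1c the site is coding, 153 bases before the stop codon. In Cdkn1a and Cdkn2b it lies in the 3′ UTR, 460 and 31 bases after it. Ccnd1 and Ccnd3 share the bases GGACTgcct, and neither gene passed 2-fold.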

How the data were processed

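RNA was sequenced from whole uterus of f/f and d/d mice, 1 library each. The authors made and deposited the FPKM values, for which HISAT2 2.2.1, Cufflinks 2.2.1 and mm10 are named in the submitters' processing notes; the sources used here give no annotation release, strand or read counts. FPKM depends on how fragments are shared between transcripts and overlapping genes. The 55483 rows were summed by symbol to 55363 genes, and log2 ratios of (FPKM + 1), d/d over f/f, were taken in Python 3.11.15 with pandas 2.3.3. The added 1 understates changes of low genes. Genes at 1 FPKM or more in a library were counted, and a ratio of at least 1 in size was called higher or lower; with 1 library per genotype there is no test. Depth came from genes with a single transcript of at least 2000 nt, where 73.0% (f/f) and 69.2% (d/d) of low values lay within 0.1 of whole fragments; full lengths make it approximate. The script that makes the calls was tested on simulated data, with planted changes beyond the cut and no noise added to them. That checks the code and not the reliability of calls from single libraries. Positions and lengths are from GENCODE M21 on GRCm38 (mm10), not matched to the authors' release. Members and lists were chosen with earlier results of these data known. Named genes are the 10, Mettl14, and from each other pathway list up to 4 past 2-fold by size or else the 2 most abundant; 1 gene within this rule is not reported here. The 9 alternatives covered pseudocount, filter, scaling, row choice and fold.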

Additional observations from a re-analysis of the deposited data

How the results depend on the processing

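Cdkn1a stayed at least 2-fold higher under every alternative run, with log2 ratios above 2 and up to 2.32. The 20 S phase genes of the E2F list stayed below 0 under all 9, most of which could not alter this. Pseudocount, filter and fold cannot change the sign of a ratio, and upper quartile scaling lowered the ratios. With a pseudocount of 5, 1 gene of the 10 was higher (Cdkn1a) and 0 were lower, with Cdkn1c at -0.98, Cdkn2a at 0.55 and Cdkn2b at 0.51. A filter of 5 FPKM also left 1 higher, since it removes Cdkn2a and Cdkn2b. A fold of 1.5 gave 3 lower, adding Cdk4 and Cdk6, where 17.8% of all genes are lower and 18.8% higher. Among the genes of the other pathway lists, that fold gave 4 higher and 23 lower, and the pseudocount of 5 gave 2 lower. Upper quartile scaling put the median of all genes at -0.10 and Cdkn1b at -0.01, the single change of sign among the 10. The highest row per symbol in place of the sum could not change the 10 genes, which have 1 row each. Chosen after seeing the data, leaving out Cdkn1a gave a d/d over f/f value of 1.43 for the ratio of inhibitors to kinases and 0.855 for that of Cip/Kip genes to D cyclins, and adding Cdkn2c and Cdkn2d to the inhibitors gave 2.03. No paired analysis was possible because there is 1 library per genotype, and no library could be left out. Cdkn2a and Cdkn2b are limited by depth.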
